A study of Homo sapiens with 24 samples.

Results

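LOUCY cells kept for 24 h in 0.05% DMSO, the solvent control of the study, were set against untreated LOUCY cells. The libraries were chosen by their treatment labels alone, with no measured value used: 4 DMSO and 6 untreated libraries, 10 of the 24 RNA-seq libraries of the study. LOUCY is an established human T-cell acute lymphoblastic leukaemia line that stands in for leukaemias of early T-cell precursors. Both groups are this 1 line, and the labels name no added agent for the untreated cells. Each of 2 experiments held 3 untreated and 2 DMSO libraries. The other LOUCY libraries were 4 with 250 nM JQ1 and 4 with 500 nM I-BET151 (inhibitors of BET bromodomain proteins). They entered the fits to estimate the spread between libraries. They also counted in the expression filter, the experiment term and the alternative normalizations. How long the untreated cells were cultured is not in the labels, so the solvent, the time in culture and the handling cannot be told apart in any difference below. They also do not say whether numbered replicates were separate cultures, so the p-values measure the spread between these libraries, which may be technical.

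DMSO is a small polar solvent that crosses cell membranes and is the usual carrier for water-insoluble drugs. At much higher concentrations it is known to affect protein folding and to drive some leukaemia lines to differentiate. Cells meet unfolded protein with chaperones of the HSP70 and HSP90 families, whose genes are switched on by heat shock factors that bind repeats of GAA and TTC in promoters. Growth factor signals through RAS and MAP kinase induce their own brakes, among them the phosphatase DUSP6, and ETS transcription factors such as ETV5, so these genes are widely read as a measure of that pathway's output. Glycolytic enzymes and p53 target genes are 2 further groups whose RNA changes with oxygen, nutrients, cell density and damage.

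Values are the authors' RPKM (reads per kilobase of gene, scaled to library size), which allow levels of different genes to be compared per length. Changes are differences on the scale of log2(RPKM + 1), DMSO less untreated, which understates the change of genes near 1 RPKM. The 10 libraries held 4656857 to 7074198 reads in listed genes. CD3D, a T-cell receptor complex gene, stood at 1531 ± 173 RPKM in untreated cells (SD, n = 6) and 1302 ± 122 in DMSO (n = 4), and the T-lineage gene CD7 at 90.4 ± 20.0 and 76.9 ± 21.5. Both are markers of the labelled lineage, and neither passed the test. A set of 12 genes high in JURKAT, the other line of the study, summed to 1.58 to 2.43 RPKM in untreated LOUCY and 1.55 to 1.75 in DMSO, against 2424 to 2975 in JURKAT. Genes of non-blood tissues (11 of 16 were listed) summed to 23.7 to 31.1 RPKM in untreated and 24.1 to 29.1 in DMSO libraries. So the marker sums of other cells overlapped between the groups.

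Certain libraries stood apart from the rest of their group in how a gene's level followed its GC content. Each slope below is that of a library less the mean of its own group, untreated or DMSO, over both experiments. These slopes therefore cannot show a GC difference between the groups. In experiment 2, DMSO replicate 1 had a slope of -0.30 and untreated replicate 2 one of -0.24, as log2 change for each 10 points of GC percentage. The slope lay between -0.13 and 0.15 in the other 8 libraries. In experiment 2 the pair of DMSO libraries differed from each other by 28.1 times counting error (chi-square per degree of freedom), and the untreated pairs by 4.48 to 25.4 times. In experiment 1 the same ratio was 1.64 for the DMSO pair and 1.99 to 3.25 for the untreated pairs. List medians that moved by over 1.5 times without DMSO replicate 1 of experiment 2 are given with and without it.

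Over both experiments, with experiment as a term in the limma model, 20 of 11411 tested genes passed a Benjamini-Hochberg adjusted p of 0.05 (0.175% of genes). In DMSO 3 of them were higher (0.0263%) and 17 lower (0.149%). HSPA8 and RSRP1 rose. DUSP6, ETV5, PFKFB4, C10orf10, CST7, AIG1 and ZFP36L1 were among the genes that fell. At an unadjusted p under 0.05 there were 1100 genes (9.64%), 267 higher and 833 lower. Of the 20 genes, 2 had every DMSO library above every untreated one and 16 had every DMSO library below. Over all tested genes the same separation held for 0.622% above and 2.05% below. The median change of all tested genes was -0.02, and 56% of genes lay below 0. Forcing the libraries onto the same distribution by quantile normalization gave 4 higher and 11 lower calls. With the libraries of each group averaged per experiment, 4 of the 20 genes still passed. DUSP6, C10orf10 and PFKFB4 were among them (limma adjusted p = 0.0251 to 0.0476). The other 16 genes described below as called over both experiments had adjusted p = 0.167 to 0.356 in that fit. Fitted on the 10 untreated and DMSO libraries alone, 11 of the 20 passed. TNFRSF10B, TNFRSF10D, GSTM3, PDIA5, NFIA-AS2, S100A10, SERPINE2, CYSLTR1 and SRSF5 did not (adjusted p = 0.0578 to 0.1).

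**Figure D1:**
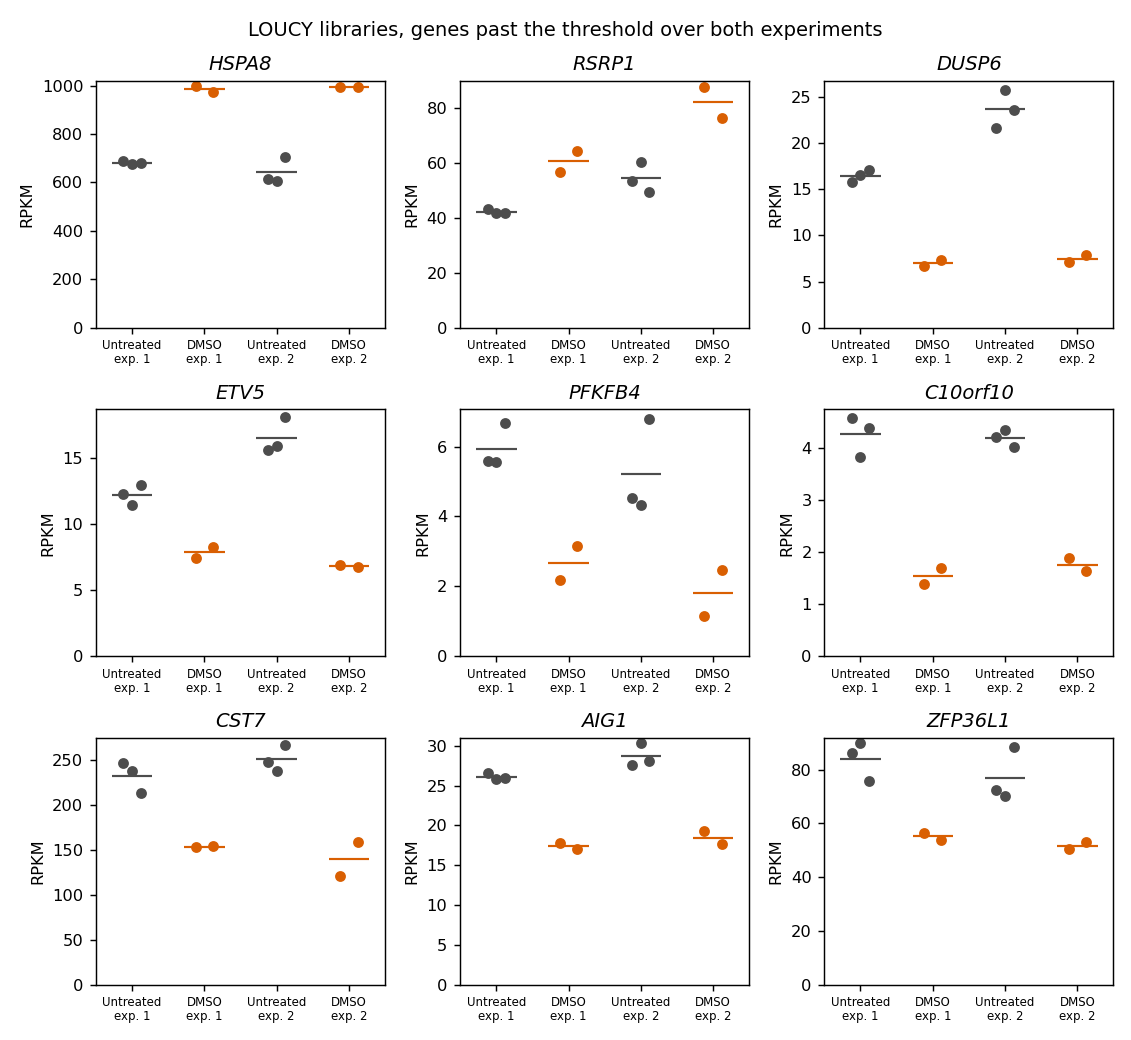
RPKM in each of the 10 libraries (1 point each, bars at group means) for 9 genes that passed the test over both experiments, in the groups untreated and DMSO of experiments 1 and 2. HSPA8 lies at 608 to 707 RPKM in untreated and 975 to 999.7 in DMSO libraries, and within each experiment the DMSO points of every gene shown lie on 1 side of the untreated points.

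HSPA8 encodes the constitutive HSP70 chaperone HSC70, which folds new proteins and strips clathrin from vesicles. The gene lies on GRCh38 at chr11:123057489-123063230, on the minus strand. Its RefSeq promoter (GRCh38.p14, chr11:123062137-123062386, minus strand, the 250 bases before the listed start) is shown because this gene had the largest rise among the protein-coding genes that passed. Capitals mark the heat shock element searched for, GAANNTTCNNGAA or its other-strand form TTCNNGAANNTTC, at positions -230 to -218 and -55 to -43.

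HSPA8 promoter: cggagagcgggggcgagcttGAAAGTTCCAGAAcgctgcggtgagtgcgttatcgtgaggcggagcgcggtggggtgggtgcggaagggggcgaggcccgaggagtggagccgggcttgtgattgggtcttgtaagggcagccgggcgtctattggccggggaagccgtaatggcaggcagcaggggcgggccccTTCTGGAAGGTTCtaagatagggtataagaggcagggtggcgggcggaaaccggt

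Untreated cells of experiment 1 had 688, 678 and 681 RPKM of HSPA8, and DMSO cells 999.7 and 975. In experiment 2 the values were 613, 608 and 707 untreated and 993 and 995 in DMSO. All 4 DMSO libraries were above all 6 untreated libraries, and the DMSO values were closer to each other than the untreated ones. The DMSO mean of 991 ± 10.7 RPKM (n = 4) was 149.6% of the untreated mean of 662 ± 41.6 (n = 6). On the log2 scale the change was 0.58 (SE 0.07, limma adjusted p = 0.000616). Experiment 1 alone gave 0.53 (adjusted p = 0.00611), experiment 2 alone 0.63 (unadjusted p = 0.00316, adjusted p = 0.697). The call over both experiments was kept when any 1 of the 10 libraries was left out (highest adjusted p = 0.00576) and lost with libraries averaged per experiment (adjusted p = 0.167), and that of experiment 1 was lost without its untreated replicate 2 or either DMSO library (adjusted p = 0.0509 to 0.157). Bulk RNA cannot tell a change in RNA per cell from a change in the share of cells that express a gene, here or below.

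The cytosolic chaperone list, 31 tested genes for folding in cytosol and mitochondria, had HSPA8 as its only call over both experiments. Of all tested genes 0.0263% were called higher. Of the 31, 27 lay above 0, where 56% of all tested genes lay below 0. The median change was 0.12, against -0.02 over all tested genes. In experiment 1 alone 17 of the 31 lay above 0 (median 0.04), and in experiment 2 alone 25 of the 31 (median 0.22). DNAJA1, an HSP40 co-chaperone that feeds substrates to HSC70, read 303, 289 and 291 RPKM untreated and 363 and 362 in DMSO in experiment 1. Its values in experiment 2 were 255, 259.8 and 282 untreated and 375 and 359 in DMSO. Its DMSO libraries all exceeded its untreated libraries, with a change of 0.38 (SE 0.08) that missed the threshold (limma adjusted p = 0.051). HSPB1, the small heat shock protein HSP27, went the other way, from 217 ± 25.9 RPKM untreated to 137 ± 26.1 in DMSO (log2 change -0.67, adjusted p = 0.0628). In experiment 1 alone HSPB1 fell by 0.76 (adjusted p = 0.0154), from 245, 252 and 199 RPKM to 139 and 134, a call that was lost without untreated replicate 1 or 2 or either DMSO library of experiment 1 (adjusted p = 0.0681 to 0.163). Leaving out DMSO replicate 1 of experiment 2 took the list's median from 0.12 to 0.09, with 20 of 31 above 0 and HSPA8 still called. That library had the highest HSPH1 (56.4 RPKM, against 31.9 to 34.3 in the other DMSO libraries) and the lowest DNAJB1 (52.0 against 72.5 to 75.0). HSP90AA1 followed the same library, at 837 RPKM there and 489 in the other DMSO library of experiment 2, and its change of 0.23 missed the threshold (adjusted p = 0.69). HSPA1A and HSPA1B, the stress-induced HSP70 genes, were below the expression filter. How multiply matching reads were treated is not given, so this does not show that their RNA was absent.

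Promoter windows were available for 28 of the 31 chaperone genes, and 7 (25.0%) held the heat shock element, against 0.441% of 35116 promoters searched and 0.436% of the 8489 tested genes with a window. Heat shock genes are known to carry this element, and the list was made of such genes. The 7 had a median change of 0.23, and 6 of them lay above 0. The 21 without it had a median of 0.09, and 19 lay above 0. In experiment 1 alone the changes of the 7 were 0.53 (HSPA8), 0.42 (CHORDC1), 0.085 (HSP90AA1), 0.04 (DNAJB6), -0.002 (HSPD1), -0.08 (HSP90AB1) and -0.23 (SERPINH1). In experiment 2 alone they were, in the same order, 0.63, 0.25, 0.38, 0.46, 0.32, 0.31 and -0.34. This is a description of letters and changes, with no test. The other 6 windows are printed to show how the element sits beside those of HSPA8. Each holds up to 15 bases on either side, again 5′ to 3′ on the gene's strand with the element in capitals. Overlapping copies run together in HSPD1 and CHORDC1.

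HSP90AA1 (chr14:102087105-102087147, minus): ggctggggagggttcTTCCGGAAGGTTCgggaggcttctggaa
HSP90AB1 (chr6:44247816-44247858, plus): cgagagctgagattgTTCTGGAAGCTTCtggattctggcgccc
DNAJB6 (chr7:157336858-157336900, plus): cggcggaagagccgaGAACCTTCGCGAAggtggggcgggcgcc
HSPD1 (chr2:197500053-197500090, minus): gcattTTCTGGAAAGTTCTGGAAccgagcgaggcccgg
CHORDC1 (chr11:90223072-90223114, minus): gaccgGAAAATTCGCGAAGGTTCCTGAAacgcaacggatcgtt
SERPINH1 (chr11:75562162-75562204, plus): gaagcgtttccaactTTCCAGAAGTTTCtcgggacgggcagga

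None of these 6 genes passed the test over both experiments. CHORDC1, an HSP90 co-chaperone, had the largest change of the 6 at 0.33 (limma adjusted p = 0.673), and SERPINH1, a collagen chaperone, was the one below 0 at -0.28 (adjusted p = 0.583). HSP90AB1 (0.12, adjusted p = 0.825), DNAJB6 (0.25, adjusted p = 0.348) and HSPD1 (0.16, adjusted p = 0.563) lay between them with HSP90AA1. Their untreated and DMSO libraries overlapped. ER chaperone genes, by contrast in sign, lay below 0 in 17 of 19, with a median of -0.12 and no call. PDIA4, an ER disulfide isomerase, read 146 ± 13.4 RPKM untreated and 109 ± 11.0 in DMSO (log2 change -0.42, limma adjusted p = 0.0744).

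DUSP6 encodes the cytosolic phosphatase that switches off ERK, and its RNA is induced by ERK activity. It lies at chr12:89347232-89353271 on the minus strand. In experiment 1 the untreated libraries had 15.8, 16.6 and 17.1 RPKM and the DMSO libraries 6.64 and 7.37. In experiment 2 the untreated libraries had 21.6, 25.8 and 23.6 and the DMSO libraries 7.08 and 7.87. Untreated levels were higher in experiment 2, while the DMSO levels of both experiments lay within 1 narrow range, and the groups did not overlap. DMSO cells had 36.0% of the untreated level (7.24 ± 0.516 against 20.1 ± 4.17 RPKM). The change of -1.33 (SE 0.16, limma adjusted p = 0.000561) split into -1.13 for experiment 1 (adjusted p = 0.00551) and -1.54 for experiment 2 (unadjusted p = 0.000157, adjusted p = 0.432). The difference between the experiments did not pass (0.41, unadjusted p = 0.184, adjusted p = 1). The call over both experiments held in each of the 10 omissions of 1 library, and that of experiment 1 was lost without either of its DMSO libraries (adjusted p = 0.0527 and 0.103).

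ETV5 is an ETS transcription factor downstream of RAS signalling, at chr3:186046308-186110318 on the minus strand. Its untreated values were 12.3, 11.4 and 12.9 RPKM in experiment 1 and 15.6, 15.9 and 18.1 in experiment 2. The DMSO values were 7.44 and 8.27 in experiment 1 and 6.91 and 6.74 in experiment 2. All DMSO libraries were lower than all untreated ones, and the mean fell from 14.4 ± 2.56 to 7.34 ± 0.689 RPKM (log2 change -0.87, SE 0.14, limma adjusted p = 0.00718). In experiment 1 alone it missed the threshold (-0.57, adjusted p = 0.0923), as it did in experiment 2 alone (-1.16, adjusted p = 0.451). It kept its call in each single-library omission, with a highest adjusted p of 0.047, and lost it with libraries averaged per experiment (adjusted p = 0.197).

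The RAS and MAP kinase feedback list has 21 members, of which 10 were tested. Of the 10, DUSP6 and ETV5 were called lower and none higher, where 0.149% of all tested genes were lower. The median change was -0.27 with 7 of 10 below 0, a share near the 56% of all tested genes. The median was -0.24 in experiment 1 and -0.43 in experiment 2. SPRED2, an inhibitor of RAF activation, read 4.25 ± 0.229 RPKM untreated and 3.01 ± 0.475 in DMSO, with no overlap between the groups (log2 change -0.40, limma adjusted p = 0.169). SPRY4 and SPRED1, further feedback inhibitors, were below the filter. Immediate early genes, which respond to the same kinases within minutes, lay below 0 in 15 of 17, against 56% of all tested genes, with a median of -0.15 and no call. Without DMSO replicate 1 of experiment 2 the immediate early median was -0.07 and 11 of 17 lay below 0. RGS16, which speeds the shut-off of G-protein signals, fell in experiment 1 alone from 10.9, 11.0 and 8.58 RPKM to 2.36 and 1.99 (log2 change -1.81, adjusted p = 0.0171), a call lost without untreated replicate 1 or 2 or either DMSO library of that experiment (adjusted p = 0.0836 to 0.163). In experiment 2 its untreated libraries were at 3.36, 3.004 and 3.20, and DMSO libraries at 1.23 and 2.61 (-0.56, unadjusted p = 0.0859).

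PFKFB4 makes fructose 2,6-bisphosphate, the allosteric activator of phosphofructokinase, and is known as a hypoxia-induced gene. It lies at chr3:48517684-48562015 on the minus strand. Experiment 1 gave 5.59, 5.55 and 6.67 RPKM untreated and 2.17 and 3.17 in DMSO, and experiment 2 gave 4.54, 4.33 and 6.78 untreated and 1.15 and 2.46 in DMSO. The lowest values in both experiments were the DMSO libraries, with DMSO replicate 1 of experiment 2 lowest of all. The mean was 5.58 ± 1.03 untreated and 2.24 ± 0.835 in DMSO (log2 change -1.05, SE 0.16, limma adjusted p = 0.00718). Without any 1 library the change stayed between -1.17 and -0.87 and the adjusted p at or under 0.0363.

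The glycolysis and hypoxia list had 31 tested genes, and PFKFB4 was its only call over both experiments, where 0.149% of all tested genes were lower. The median change was -0.28, with 29 of 31 below 0, against 56% of all tested genes. Set against the mean of each gene over the 10 libraries, the list's median level in experiment 1 was 0.28, 0.23 and 0.28 in untreated and -0.13 and -0.14 in DMSO libraries. In experiment 2 it was -0.08, -0.17 and 0.11 in untreated and -0.45 and -0.07 in DMSO libraries. The groups were apart in experiment 1 and overlapped in experiment 2, where DMSO replicate 1 was far below the rest. Without that library the list's median over both experiments was -0.25. FAM162A, a mitochondrial protein gene known to respond to hypoxia, fell from 139 ± 9.15 to 96.8 ± 4.61 RPKM, with no overlap (log2 change -0.51, limma adjusted p = 0.0118). Its call was lost without DMSO replicate 2 of experiment 1 (adjusted p = 0.0561).

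In experiment 1 alone 8 of the 31 glycolysis and hypoxia genes fell (ENO1, SLC2A1, HK1, ADM, TPI1, ALDOA, GPI and PFKFB4), the median was -0.40 and 30 of 31 lay below 0, against 55% of all genes tested there. Calls in experiment 1 were 57 of 10960 genes (0.52%), 11 higher (0.1%) and 46 lower (0.42%). The glycolytic enzyme TPI1 read 1003, 938 and 921 RPKM untreated and 685 and 709 in DMSO there (log2 change -0.45, limma adjusted p = 0.0185). The glucose transporter SLC2A1 read 36.7, 38.7 and 35.8 untreated and 24.3 and 27.0 in DMSO (-0.51, adjusted p = 0.0268). In experiment 2 the untreated level of SLC2A1 was lower than in experiment 1, at 20.3, 18.5 and 25.3. Its DMSO libraries there read 17.9 and 27.1, and the groups overlapped (0.05, limma unadjusted p = 0.82). ENO1 had the same layout, with untreated values of 1479, 1419 and 1394 RPKM in experiment 1 and 892, 841 and 1199 in experiment 2. Its DMSO values were 1067 and 1065 in experiment 1 and 800.1 and 1111 in experiment 2. These calls rest on few libraries: with 1 library of experiment 1 left out at a time, 0 or 1 of the 31 genes were called.

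**Figure D2:**
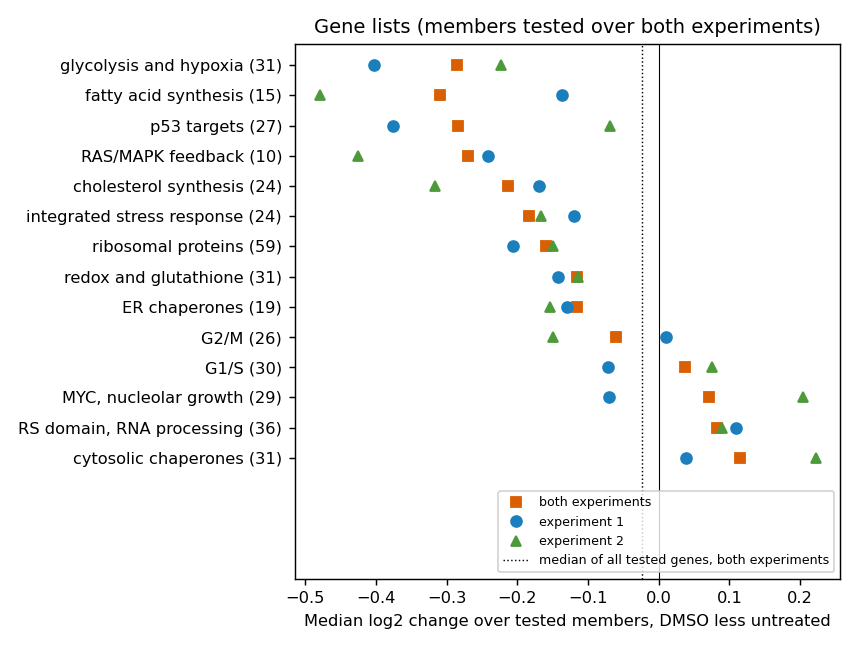
Median log2 change (DMSO less untreated) of each of 14 gene lists, over both experiments, in experiment 1 alone and in experiment 2 alone, with the dotted line at the median of all tested genes (-0.02). Cytosolic chaperones lie above the line and ER chaperone, lipid, glycolysis, p53 and ribosomal protein lists below it, and the p53 list is nearer the line in experiment 2 (-0.07) than in experiment 1 (-0.38).

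ACGTG is a form of the site bound by hypoxia-inducible factors. Other forms were not searched for, so genes without ACGTG may still hold a site. ACGTG was searched on both strands in the same 250-base windows. It was found in 18 of 27 matched glycolysis and hypoxia genes (66.7%), in 18.5% of all promoters and in 29.7% of tested genes with a window. The list was chosen to hold hypoxia-responsive genes, so this share is not a result about DMSO. CACGTG, which also reads as the E-box of MYC-type factors and holds the motif on both strands, was in 6.34% of promoters, and in 1 promoter a heat shock element overlapped an ACGTG. The median change was -0.25 in the genes with the motif and -0.32 in the 9 without it. Windows of TPI1, ALDOA and GPI are shown because these 3 enzymes fell in experiment 1 and held the motif. None was found for ENO1, HK1, SLC2A1, ADM or PFKFB4, which also fell there, though windows were not available for every gene of the list. The capitals mark the motif on either strand.

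TPI1 (chr12:6868073-6868104, plus): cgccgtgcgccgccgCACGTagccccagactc
ALDOA (chr16:30064086-30064120, plus): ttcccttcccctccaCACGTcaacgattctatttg
GPI (chr19:34364815-34364849, plus): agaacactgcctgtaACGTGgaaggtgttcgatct

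Lipid synthesis genes lay below 0 almost without exception, and none passed over both experiments. All 24 tested cholesterol synthesis genes were below 0 (median -0.21), as were 14 of 15 fatty acid genes (median -0.31). In experiment 2 alone 22 of the 24 cholesterol genes lay below 0 (median -0.32), against 55.3% of all genes tested there. SCD, the desaturase that makes oleate, read 95.8, 96.2 and 98.5 RPKM untreated and 75.2 and 69.0 in DMSO in experiment 1, where it fell (log2 change -0.42, limma adjusted p = 0.0392) in a call that each of the 5 single-library omissions ended (adjusted p = 0.0798 to 0.37). In experiment 2 it read 103, 101 and 138 untreated and 68.9 and 78.4 in DMSO. The groups did not overlap, yet over both experiments SCD just missed the threshold (-0.52, adjusted p = 0.051). INSIG1, the sterol sensor that holds back SREBP, read 132, 144 and 107 RPKM untreated and 55.1 and 53.6 in DMSO in experiment 2 (-1.21, unadjusted p = 0.000103, adjusted p = 0.39). In experiment 1 it read 87.5, 77.0 and 60.2 untreated and 64.1 and 66.0 in DMSO (-0.18), with overlap. The difference between experiments for INSIG1 did not pass (adjusted p = 0.657). FDPS, of the mevalonate pathway, read 230.1 ± 18.2 RPKM untreated and 169.9 ± 17.7 in DMSO without overlap (-0.44, adjusted p = 0.117).

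C10orf10 (also DEPP1), a gene known to be induced by FOXO factors and fasting, had the smallest adjusted p of the comparison. Its untreated values were 4.57, 3.81 and 4.37 RPKM in experiment 1 and 4.21, 4.34 and 4.02 in experiment 2. DMSO values were 1.39 and 1.69 in experiment 1 and 1.88 and 1.63 in experiment 2. The groups were far apart in both experiments and the DMSO mean was 39.1% of the untreated mean (log2 change -0.98, SE 0.11, limma adjusted p = 0.000325). FOXO and quiescence genes as a list had a median of -0.02 with 10 of 17 below 0 and no call (-0.06 and 11 of 17 without DMSO replicate 1 of experiment 2). TXNIP, a nutrient-responsive member, was at 57.0 ± 8.24 RPKM untreated and 70.2 ± 4.58 in DMSO (0.31, adjusted p = 0.225).

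AIG1, a membrane hydrolase of fatty acid esters (chr6:143060496-143340304), read 26.5, 25.8 and 26.0 RPKM untreated and 17.8 and 17.0 in DMSO in experiment 1. It read 27.6, 30.3 and 28.05 untreated and 19.2 and 17.7 in DMSO in experiment 2. No DMSO library reached the lowest untreated one, and the DMSO mean was 65.5% of the untreated mean (log2 change -0.58, SE 0.08, limma adjusted p = 0.00165). ZFP36L1, which binds AU-rich elements and speeds mRNA decay (chr14:68787660-68796253, minus strand), read 86.0, 89.8 and 75.6 untreated and 56.4 and 53.8 in DMSO in experiment 1. In experiment 2 it read 72.3, 70.1 and 88.5 untreated and 50.4 and 52.9 in DMSO. Here too the groups did not overlap (-0.57, adjusted p = 0.00718). The calls of AIG1 and ZFP36L1 over both experiments were lost with libraries averaged per experiment (adjusted p = 0.232 for each).

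CST7 encodes cystatin F, an inhibitor of cysteine proteases in immune cells (chr20:24949230-24959928). It read 247, 238 and 214 RPKM untreated and 153 and 155 in DMSO in experiment 1, and 248, 238 and 268 untreated and 121 and 159 in DMSO in experiment 2. The groups were well apart (log2 change -0.72, limma adjusted p = 0.0129). Its call was lost without DMSO replicate 1 of experiment 1 or without DMSO replicate 1 of experiment 2 (adjusted p = 0.0518 to 0.0713). S100A10, the partner of annexin A2, fell from 199.98 ± 18.3 to 140.4 ± 11.7 RPKM (-0.51, adjusted p = 0.0132). That call was lost without DMSO replicate 2 of experiment 1 or DMSO replicate 1 of experiment 2 (adjusted p = 0.0643 to 0.0651).

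Other genes fell with calls that leaned on more of the libraries. GSTM3, a glutathione transferase, went from 7.29 ± 1.23 RPKM untreated to 3.93 ± 0.90 in DMSO (log2 change -0.75, limma adjusted p = 0.0183). PDIA5, an ER disulfide isomerase, went from 43.1 ± 3.88 to 29.4 ± 4.72 (-0.55, adjusted p = 0.0183). SERPINE2, a secreted protease inhibitor, went from 18.8 ± 2.59 to 11.7 ± 1.39 (-0.64, adjusted p = 0.022). CYSLTR1, a leukotriene receptor, went from 2.84 ± 0.729 to 1.54 ± 0.304 (-0.58, adjusted p = 0.022). In these 4 genes no DMSO library reached the lowest untreated library. NFIA-AS2, a transcript antisense to NFIA, went from 3.45 ± 0.558 to 2.04 ± 0.538 (-0.56, adjusted p = 0.0183) with overlap across experiments, and since the libraries do not mark strand its reads cannot be told from those of overlapping genes.

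Left out 1 at a time, these libraries ended those calls. For GSTM3 they were untreated replicate 1 and DMSO replicate 2 of experiment 1 and untreated replicates 1 and 3 and DMSO replicate 1 of experiment 2 (limma adjusted p = 0.0512 to 0.118). For PDIA5 they were untreated replicate 1 and DMSO replicate 1 of experiment 1 and untreated replicates 1 and 3 and DMSO replicate 1 of experiment 2 (adjusted p = 0.0533 to 0.0931). For NFIA-AS2 they were both DMSO libraries of experiment 1 and untreated replicates 1 and 3 and DMSO replicate 2 of experiment 2 (adjusted p = 0.0533 to 0.107). For SERPINE2 they were untreated replicate 3 and both DMSO libraries of experiment 1 and untreated replicates 1 and 3 and DMSO replicate 2 of experiment 2 (adjusted p = 0.0512 to 0.0777). For CYSLTR1 they were untreated replicate 2 and DMSO replicate 1 of experiment 1 and untreated replicates 1 and 3 and both DMSO libraries of experiment 2 (adjusted p = 0.0524 to 0.107). The change itself stayed below 0 in every one of these omissions. The small RNA feature MIR8078, named after its values were seen, was the third gene that was higher over both experiments (adjusted p = 0.00718). It was at 0 in the 3 untreated libraries of experiment 1 and at 9.75 and 20.8 RPKM in DMSO there, and had at most 9 reads in any of the 10 libraries. Its means over both experiments were 1.96 RPKM untreated and 14.2 in DMSO, so it was not at 0 in every untreated library of experiment 2.

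RSRP1, an arginine and serine rich protein gene at chr1:25242237-25338213, rose in DMSO. Experiment 1 gave 43.1, 41.8 and 41.7 RPKM untreated and 56.6 and 64.2 in DMSO. Experiment 2 gave 53.3, 60.1 and 49.4 untreated and 87.4 and 76.4 in DMSO. Within each experiment the DMSO libraries were higher, and the groups overlapped only across experiments. The change was 0.55 (SE 0.09, limma adjusted p = 0.011), 0.51 in experiment 1 and 0.59 in experiment 2. SRSF5, a splicing factor of the SR family, fell from 185 ± 22.1 to 139.5 ± 8.33 RPKM (-0.40, adjusted p = 0.0339). That call was lost in 8 of the 10 single-library omissions and kept only without untreated replicate 2 of experiment 2 or without DMSO replicate 1 of experiment 2 (adjusted p in the 8 was 0.063 to 0.14).

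The RNA processing list had 36 tested genes, with RSRP1 higher, SRSF5 lower, a median change of 0.08 and 27 above 0. Of all tested genes 0.0263% were called higher and 0.149% lower, and 56% lay below 0. Without DMSO replicate 1 of experiment 2 the median was 0.01 and 19 of 36 lay above 0. CLK1, a kinase of splicing factors, rose in experiment 1 from 30.0, 30.2 and 32.1 RPKM to 51.1 and 51.2 (log2 change 0.72, limma adjusted p = 0.0171). That call was lost without untreated replicate 1 or 2 or either DMSO library of experiment 1 (adjusted p = 0.0865 to 0.23). In experiment 2 CLK1 read 49.6, 55.2 and 34.8 untreated, 103 in DMSO replicate 1 and 44.2 in DMSO replicate 2, so the groups overlapped. Experiment 2 libraries of high CLK1 were also those of steep GC slope, and CLK1 has a low GC content of 35.7%. Over both experiments the CLK1 change was 0.63 (limma adjusted p = 0.306). With each library's GC trend removed it was 0.61 (adjusted p = 0.00709). The part of GC in this result was not tested beyond these fits.

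TNFRSF10B, the death receptor DR5 for TRAIL and a p53 target, fell from 7.98 ± 0.969 to 4.75 ± 0.344 RPKM. It read 9.61, 8.19 and 7.36 untreated and 4.89 and 4.25 in DMSO in experiment 1, and 6.79, 7.67 and 8.29 untreated and 4.82 and 5.04 in DMSO in experiment 2. No DMSO library reached the untreated range (log2 change -0.64, limma adjusted p = 0.0256). TNFRSF10D, a decoy receptor for the same ligand, fell from 2.94 ± 0.347 to 1.401 ± 0.457 (-0.73, adjusted p = 0.0339), also with no overlap. TNFRSF10A, another TRAIL receptor of this gene cluster, named after its values were seen, read 3.59 ± 0.809 and 2.17 ± 0.916 (-0.56, adjusted p = 0.126). The TNFRSF10B call was lost without untreated replicate 1 or 2 or either DMSO library of experiment 1, or untreated replicate 3 or DMSO replicate 1 of experiment 2 (adjusted p = 0.0562 to 0.135). The TNFRSF10D call was lost without any library of experiment 1 or without DMSO replicate 1 of experiment 2 (adjusted p = 0.0674 to 0.16).

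Over both experiments TNFRSF10B was the only call among 27 tested p53 targets, where 0.149% of all tested genes were lower. The median change of the 27 was -0.28 with 24 below 0, against 56% of all tested genes. Experiment 1 alone had 8 calls among 26, where 0.42% of all genes were lower (BTG2, DDB2, TRIAP1, RPS27L, AEN, CDKN1A, SESN1 and TNFRSF10B), all lower, with a median of -0.38. CDKN1A, the cell-cycle inhibitor p21, read 15.2, 16.8 and 13.9 RPKM untreated and 4.27 and 6.84 in DMSO in experiment 1 (log2 change -1.34, limma adjusted p = 0.0129), a call lost without untreated replicate 1 or 2 or DMSO replicate 1 of experiment 1 (adjusted p = 0.0586 to 0.157). In experiment 2 its untreated libraries were at 3.86, 3.02 and 4.89 and its DMSO libraries at 4.41 and 6.37 (0.38, unadjusted p = 0.184). The DMSO values of the 2 experiments overlapped, and the untreated libraries of experiment 1 were the high ones.

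TRIAP1, a small p53-induced inhibitor of apoptosis, showed the same layout: 141, 146 and 142 RPKM untreated and 72.3 and 65.3 in DMSO in experiment 1 (log2 change -1.05, limma adjusted p = 0.00216). Experiment 2 gave 62.8, 68.4 and 67.8 untreated and 86.6 and 66.5 in DMSO (0.19). BTG2, an antiproliferative gene, read 78.4, 82.3 and 84.0 untreated and 38.5 and 42.6 in DMSO in experiment 1 (-0.99, adjusted p = 0.00611), and 38.8, 30.0 and 46.9 untreated and 38.2 and 49.0 in DMSO in experiment 2. AEN, a p53-induced nuclease, fell in experiment 1 from 31.2, 32.2 and 32.9 to 14.5 and 14.996 (-1.07, adjusted p = 0.00175) and stood at 11.2, 10.7 and 16.8 untreated and 10.5 and 14.4 in DMSO in experiment 2. GADD45A, a growth arrest and damage gene, fell in experiment 1 from 38.4, 36.8 and 30.3 to 11.0 and 9.69 (-1.67, adjusted p = 0.000785). Its experiment 2 values were 11.4, 15.8 and 9.11 untreated and 9.30 and 10.7 in DMSO. The experiment 1 call of TRIAP1 was lost without DMSO replicate 2 (adjusted p = 0.0527) and that of BTG2 without either DMSO library (adjusted p = 0.0542 and 0.125). In these 4 genes the untreated libraries of experiment 1 lay above all other libraries.

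**Figure D3:**
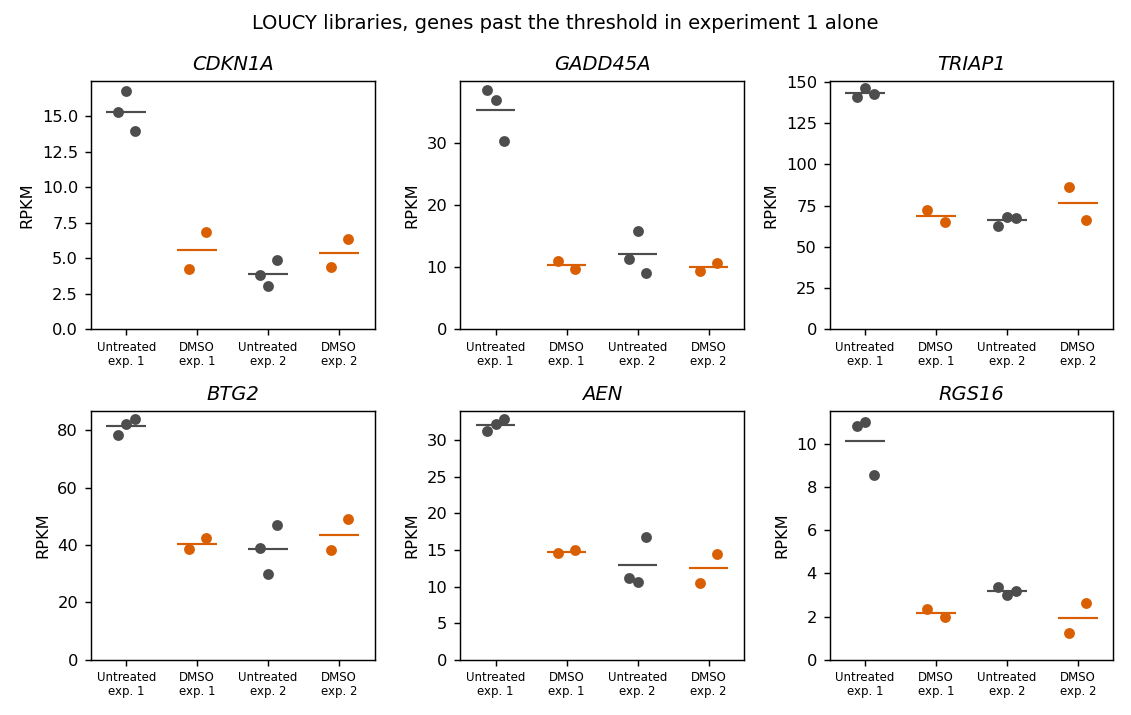
RPKM in each of the 10 libraries (1 point each, bars at group means) for CDKN1A, GADD45A, TRIAP1, BTG2, AEN and RGS16, in the groups untreated and DMSO of experiments 1 and 2. In experiment 1 the untreated libraries stand above the DMSO libraries, while in experiment 2 the groups overlap in every panel but RGS16.

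Over the 27 p53 targets the difference between the experiments was below 0 in 21, against 50.2% of all tested genes. It was tested for each of these genes and did not pass: -1.72 for CDKN1A and -1.45 for GADD45A (limma adjusted p = 0.401 for both), -1.24 for TRIAP1 (unadjusted p = 1.05e-05, adjusted p = 0.06), -1.18 for BTG2 (adjusted p = 0.494) and -1.04 for AEN (adjusted p = 0.887). With a gene's GC trend removed from each library, 5 differences passed, BTG2, TRIAP1 and CDKN1A among them. In all, 1 of 11411 differences passed (0.00876%) and 468 had an unadjusted p under 0.05 (4.1%). The 1 gene was the small nucleolar RNA SNORD27, named after its values were seen. It read 11.7, 10.2 and 15.3 RPKM untreated and 0 in both DMSO libraries of experiment 1, and 13.9, 11.3 and 6.89 untreated and 18.6 and 18.2 in DMSO in experiment 2. It had at most 9 reads in a library, and the difference was -4.50 (adjusted p = 0.000704).

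Experiment 1 calls depended on single libraries. With a fit across the LOUCY libraries of that experiment, the 57 calls became 13 without untreated replicate 1, 10 without untreated replicate 2 and 33 without untreated replicate 3. They became 8 without DMSO replicate 1 and 5 without DMSO replicate 2. Of the 57 genes, 3 stayed called in all 5 omissions: GADD45A, AEN and SNORD27. The number of p53 targets called was 2 to 6.

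No gene of 11024 passed in experiment 2 alone by limma (0%), where 540 had an unadjusted p under 0.05 (4.9%) and the smallest adjusted p was 0.39. Of the 57 genes called in experiment 1, 48 had the same sign in experiment 2, 14 of them at an unadjusted p under 0.05. Their median size was 0.60 in experiment 1, and in experiment 2 the median change in the direction of experiment 1 was 0.30. All 20 genes called over both experiments had the same sign in each, which the joint fit favours. Over the 10808 genes tested in both, 54.8% had the same sign and Pearson's r across genes, which are not independent replicates, was 0.17. For the 46 genes lower in experiment 1, the untreated level was higher in experiment 1 than in experiment 2 in 41, by a median of 0.38, and the DMSO level by a median of 0.06. Since these genes were chosen by the contrast with those untreated libraries, that count is a description.

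**Figure D4:**
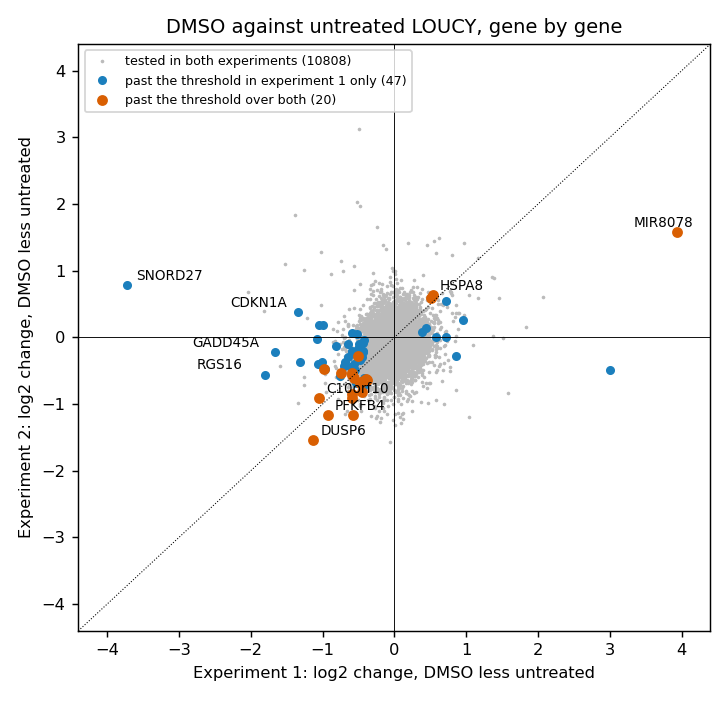
Log2 change of each gene (DMSO less untreated) in experiment 1 on the horizontal axis and experiment 2 on the vertical axis, for 10808 genes tested in both, with genes called in experiment 1 only in blue and the 20 called over both in orange. DUSP6, PFKFB4 and HSPA8 lie near the diagonal, while CDKN1A, TRIAP1 and BTG2 lie low in experiment 1 and near or above 0 in experiment 2.

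Ribosomal protein genes, which lie in many near-identical copies in the genome and are counted with that uncertainty, were below 0 in 57 of 59 (median -0.16) with no call, against 56% of all tested genes. Without DMSO replicate 1 of experiment 2 the median was -0.09 and 56 of 59 lay below 0. RPS19 in DMSO replicate 1 of experiment 2 stood at 536 RPKM against 708 to 727 in the other DMSO libraries. In experiment 2 alone the median of the ribosomal list was -0.15, and 0.06 without that library. The RNA processing median there likewise went from 0.09 to -0.05. Integrated stress response genes were below 0 in 23 of 24 (median -0.18), and in 21 of 24 (median -0.12) without DMSO replicate 1 of experiment 2. None was called over both experiments. TRIB3, a pseudokinase target of ATF4 and CHOP, was at 14.1 ± 0.663 RPKM untreated and 10.3 ± 1.67 in DMSO (log2 change -0.43, limma adjusted p = 0.299). DDIT4, an inhibitor of mTORC1 on that list, fell in experiment 1 alone from 259, 257 and 235 RPKM to 164 and 169 (-0.58, adjusted p = 0.00674), a call lost without untreated replicate 2 or either DMSO library of experiment 1 (adjusted p = 0.0509 to 0.157). Nucleolar and MYC growth genes had a median of 0.07, from -0.07 in experiment 1 to 0.20 in experiment 2.

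The cell-cycle lists held no call. G1/S genes had a median of 0.04 with 11 of 30 below 0, and G2/M genes one of -0.06 with 23 of 26 below 0, against 56% of all tested genes. The G1/S median was -0.07 with 21 of 30 below 0 in experiment 1 alone, and 0.075 with 10 of 30 in experiment 2 alone. The G2/M median was 0.01 with 13 of 26 below 0 in experiment 1 alone, and -0.15 with 23 of 26 in experiment 2 alone. Without DMSO replicate 1 of experiment 2 the medians over both experiments were 0.07 for G1/S and -0.13 for G2/M. RRM2, a subunit of ribonucleotide reductase, read 102 ± 9.75 RPKM untreated and 126 ± 10.3 in DMSO (log2 change 0.31, limma adjusted p = 0.166), and BIRC5, the mitotic protein survivin, 156 ± 8.55 and 125 ± 9.40 (-0.33, adjusted p = 0.229). In both the groups did not overlap.

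Myeloid, B-lineage and cortical thymocyte genes, the last a stage of the T lineage itself, held no call over both experiments. Below 0 were 7 of 7 myeloid genes (median -0.33), 6 of 6 cortical thymocyte genes (median -0.36) and 6 of 6 B-lineage genes (median -0.23), against 56% of all tested genes. Without DMSO replicate 1 of experiment 2 these were 6 of 7 (-0.26), 6 of 6 (-0.38) and 6 of 6 (-0.16). MPO, the granule enzyme of granulocyte precursors, read 4.94 ± 1.37 RPKM untreated and 2.70 ± 1.02 in DMSO (log2 change -0.69, limma adjusted p = 0.17). VPREB1, a surrogate light chain gene with near-identical relatives, fell in experiment 1 alone from 991, 950.3 and 868 RPKM to 591 and 607 (-0.64, adjusted p = 0.00674), a call lost without untreated replicate 2 or either DMSO library of that experiment (adjusted p = 0.0509 to 0.157). IGLL1, its partner chain, read 4562 ± 669 untreated and 3229.6 ± 654 in DMSO without overlap (-0.51, adjusted p = 0.166). T-cell identity genes had a median of -0.15 with 13 of 20 below 0 (-0.05 and 12 of 20 without DMSO replicate 1 of experiment 2), and progenitor transcription factors a median of -0.04. Genes that BET inhibitors move held no call among 12 tested, with a median of 0.15 and 4 of 12 below 0. Below 0 were 5 of 12 in experiment 1 and 2 of 12 in experiment 2. In 2 of the 12 every DMSO library was above every untreated one, against 0.622% of all tested genes. HIST1H2BK was among them, at 39.3 ± 3.93 RPKM untreated and 53.6 ± 11.8 in DMSO (0.42, limma adjusted p = 0.258). HEXIM1 read 16.9 ± 1.73 and 19.7 ± 2.21 (0.21, adjusted p = 0.544) and MYCN 11.5 ± 2.14 and 12.4 ± 1.37 (0.12, adjusted p = 0.934). The sign for MYCN turned to -0.02 without untreated replicate 3 of experiment 2.

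The change in DMSO also varied with the GC content of genes. Over both experiments with genes in 5 equal bins, the median change went from 0.03 in the bin of lowest GC (27.3% to 40.5%) to -0.12 in the bin of highest GC (57.3% to 76.2%). In experiment 1 it went from 0.08 to -0.14, and in experiment 2 from -0.02 to -0.11. Among the called genes GC content was 40.5% in AIG1, 46.7% in DUSP6, 47.0% in HSPA8, 56.8% in PFKFB4 and 57.3% in CST7. Removing each library's GC trend gave 96 calls over both experiments, DUSP6, HSPA8, ETV5, PFKFB4, RSRP1, CST7, AIG1 and ZFP36L1 among them. That setting also called HSPB1 (-0.52), SCD (-0.50), INSIG1 (-0.69), FDPS (-0.35), PDIA4 (-0.36), ADM (-0.62) and TPI1 (-0.28) as lower and CLK1 (0.61), DNAJB1 (0.32), DNAJB6 (0.33) and RRM2 (0.32) as higher. SRSF5 was no longer called, and C10orf10 has no GC value in the annotation used. Without the 3 LOUCY libraries of steepest slope, 1 of them treated with I-BET151, there were 34 calls. The part of GC content in the smaller changes was not tested beyond these fits.

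**Figure D5:**
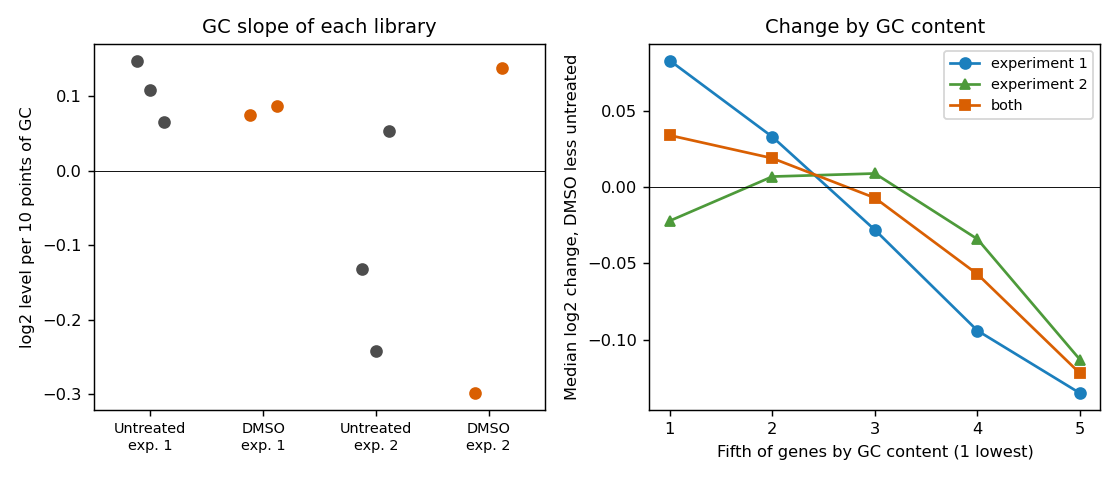
Slope on gene GC content of each of the 10 libraries, taken against the mean of its own group (log2 for each 10 points of GC percentage). Beside it is the median log2 change (DMSO less untreated) by bin of GC content (5 equal bins), for both experiments and each alone. The slopes cannot show a difference between the groups. DMSO replicate 1 (-0.30) and untreated replicate 2 (-0.24) of experiment 2 have the steepest slopes, and the median change is lowest in the bin of highest GC.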

How the data were processed

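RNA from LOUCY and JURKAT cells was made into libraries by Smart-seq2 and Nextera XT, per the labels' protocols, which mark no strand. The authors deposited RPKM values of 15862 genes. STAR 2.5.1b, edgeR 3.10.5, Subread 1.4.5-p1 and featureCounts, with build hg38, are named in the submitters' processing notes. The sources used here do not give the annotation, the gene lengths, the settings or how multiply matching reads were treated. RPKM values came out as whole multiples of 1 read in 100% of genes (within 0.01 reads), which gave the depths. The number of reads sets the precision of a value.

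Values were log2(RPKM + 1). A gene was kept if 4 or more LOUCY libraries of the fit, inhibitor libraries included, reached 1 RPKM. limma 3.58.1 in R 4.3.3 fitted the 18 LOUCY libraries with group and experiment terms and a mean-variance trend (two-sided moderated test, adjusted p under 0.05). Each experiment was also fitted alone on its LOUCY libraries, and the difference between experiments as an interaction. The fit was tested on simulated data. Positions came from GENCODE 29 (14815 of 15862 genes matched) and promoters from RefSeq (GRCh38.p14). The members and gene lists were chosen with earlier results of these data known. Genes named were those past the threshold over both experiments, the largest changes past it in each experiment alone (at least 5 RPKM in the higher group), up to 2 higher and 2 lower members of each list at an unadjusted p under 0.05, and a panel. Further list members were named after their values were seen. Alternatives are in the closing section.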

Additional observations from a re-analysis of the deposited data

Results flagged for a closer look

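Within the groups of 6 untreated and 4 DMSO libraries, 164 groups of values of 82 named genes were searched for a library whose gap to its nearest neighbour is large for the range of its group, and 17 such values were found. Chance gives about 1 in 20 groups. DMSO replicate 1 of experiment 2 held most of them. It was the low library for CST7 (120.63 RPKM, the other DMSO libraries 153.08 to 159.44), AEN (10.533), PDIA4 (92.081), CAT (329.58), RPS19 (535.96) and DNAJB1 (51.974). It was the high library for CLK1 (102.59), EIF4A2 (219.44), TXNIP (77.022) and HSPH1 (56.399). This library also had the steepest GC slope of the 10. The part of that slope in these values was not tested.

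Untreated replicate 3 of experiment 2 was high for the lipid genes FDPS (264.31 RPKM), SCD (138.5) and FADS1 (66.407) and low for MYCN (7.189, the other untreated libraries 11.651 to 12.73). Untreated replicate 2 of experiment 2 was low for HIST1H2BK (31.739). CD70 was high in untreated replicate 3 of experiment 1 (2.1664) and, among DMSO libraries, was above 0 only in replicate 1 of experiment 1 (1.1218), on at most 9 reads.

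The DMSO change of SNORD27 differed between the experiments by -4.502 on the log2 scale (limma interaction, adjusted p = 0.000704), on at most 9 reads in a library.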

How the results depend on the processing

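The 20 calls over both experiments became 12 with only the 10 libraries fitted, 13 with no experiment term, 6 with libraries averaged per experiment, 34 without the 3 libraries of steepest GC slope and 96 with GC trends removed. Leaving out 1 library at a time gave 12 to 26: 12 without DMSO replicate 1 and 13 without DMSO replicate 2 of experiment 1, and 13 without untreated replicate 3 or DMSO replicate 1 of experiment 2. The 57 calls of experiment 1 became 175 with its untreated and DMSO libraries alone, 10 with no mean-variance trend and 5 to 33 with 1 library left out. Experiment 2 stayed at 0 calls in every setting and omission run (0 to 0). The 1 difference between experiments became 3 with a pseudocount of 0.1, 2 with a filter of 5 RPKM, 5 with GC trends removed, 2 without the 3 steep libraries and 1 to 2 with 1 library left out (2 without DMSO replicate 2 of experiment 2).

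Whether replicate numbers pair the libraries was not settled. The correlation of same-numbered deviations was 0.01 and 0.03 in experiment 1 and 0.22 and -0.55 in experiment 2. With 2 DMSO libraries in each experiment, their deviations from the mean mirror each other, so this check cannot exclude pairing. With a replicate block the counts were 4 over both experiments, 119 in experiment 1, 0 in experiment 2 and 1 for the difference. MYCN, 0.12 in the reported fit, lay between -0.018 (without untreated replicate 3 of experiment 2) and 0.166 with 1 library left out. Of the 19 genes described as called over both experiments, C10orf10, HSPA8, DUSP6 and S100A10 kept their calls with the block and 15 lost them (limma adjusted p 0.0525 to 0.194). With no experiment term TNFRSF10D, PDIA5, RSRP1, NFIA-AS2, CYSLTR1 and SRSF5 lost theirs (0.067 to 0.181), and with quantile normalization PDIA5, TNFRSF10D, NFIA-AS2, CST7, S100A10 and SRSF5 did (0.0599 to 0.155). Over both experiments DUSP6 and C10orf10 kept their calls in every setting run, and HSPA8 lost its call in 1 (libraries averaged per experiment). Causes of these moves were not tested. Genes with few reads (MIR8078, SNORD27, CD70) are limited most by depth.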
